A study of Mus musculus with 8 samples.

Results

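The genes described here are 10 genes of T cells and natural killer (NK) cells, taken by symbol from a table of 22052 genes measured in whole mouse liver: Cd3d, Cd3e, Cd3g, Cd247, Lck, Thy1, Klrd1, Nkg7, Gzma and Gzmb. All 10 were listed, and all 10 passed the filter on low values. The study compared 4 double-knockout mice (dKO, genotype Zfp36l1fl/fl/Zfp36l2fl/fl/Alb-Cre) with 4 flox controls (Zfp36l1fl/fl/Zfp36l2fl/fl), which carry the same floxed alleles of the RNA-binding proteins ZFP36L1 and ZFP36L2 but, per the labels, no Cre. All were adult males of the C57BL/6 strain, 8 weeks old, and every mouse of either group had received corn oil into the peritoneum. In Alb-Cre mice the promoter of the albumin gene, a gene of hepatocytes, drives the recombinase, so the floxed alleles of T and NK cells are not its target, and the presence of Cre differs between the groups along with the deletion. Each library came from 1 numbered mouse.

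Libraries held 17273389 to 19299556 reads assigned to genes in dKO livers and 15253827 to 17745944 in control livers. The values are normalised read counts, that is, reads per gene divided by 1 size factor per library, with no division by gene length. Zfp36l1, which the design deletes, had 214, 213, 209 and 267 normalised read counts in dKO livers, against 1321, 1336, 1182 and 1642 in control livers. Zfp36l2 had 696, 794, 771 and 923 in dKO livers, against 1722, 1795, 997 and 1819.6 in control livers. For each of them the exact permutation p (2-sided) was 0.0286, the smallest that 4 against 4 livers allow. Of 6 hepatocyte genes, 2 were lower in dKO livers (Ttr and Serpina1a), 1 was higher (Tat) and 3 were not called, with a median log2 change of -0.14. Of all tested genes, 17.0% were called lower and 21.2% higher. The call of Tat was lost without dKO 1, dKO 3, dKO 4, control 1, control 3 or control 4, and in other settings (adjusted p 0.052 to 0.136 in limma). Alb, the hepatocyte gene for serum albumin, averaged 824048 ± 26104 normalised read counts in dKO livers and 773159.8 ± 55865 in control livers (SD, n = 4 each; adjusted p = 0.785, limma). Control 4 stood apart from the other controls on the first principal component (score 43.3, against 67.7 to 76.5 for the other controls and -68.9 to -57.5 for dKO livers). The 4 genes called below were also called without it, with log2 changes of 3.01 for Thy1, 2.38 for Klrd1, 2.32 for Lck and 1.39 for Cd247. In whole tissue, more cells of a type and more RNA per cell cannot be told apart.

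T cells recognise antigen through a T cell receptor whose alpha and beta chains bind the ligand, while the CD3 chains carry the signal into the cell. The immunoreceptor tyrosine-based activation motifs (ITAMs) of CD3-gamma, -delta, -epsilon and -zeta (Cd3g, Cd3d, Cd3e, Cd247) are phosphorylated by the kinase LCK (Lck), which opens the way for ZAP70 and the adaptors LAT and SLP-76. NK cells lack this receptor. They read inhibitory and activating surface receptors, among them CD94 (Klrd1) paired with an NKG2 chain, and they use CD3-zeta as an adaptor of activating receptors. NKG7 (Nkg7) is a membrane protein of cytotoxic granules, and granzymes A and B (Gzma, Gzmb) are the proteases that those granules deliver into target cells. THY1 (Thy1) is a GPI-anchored surface protein of mouse T cells that fibroblasts and some other cells also carry. The mouse liver holds resident NK cells, type 1 innate lymphoid cells, natural killer T cells and conventional T cells.

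ETS-family transcription factors are known regulators of T cell genes, and the promoters of Lck and Cd247, the T cell signalling members that passed the test below, are shown with an ETS core in capitals (AGGAAGT or its reverse complement ACTTCCT). The windows run from 250 bases before to 50 bases after a RefSeq start site on GRCm38.p6 and are printed 5′ to 3′ on the gene's strand. They are the distal Lck promoter at chr4:129573592-129573891 (minus strand), the proximal Lck promoter at chr4:129558323-129558622 (minus strand) and the Cd247 promoter at chr1:165788431-165788730 (plus strand).
Lck distal: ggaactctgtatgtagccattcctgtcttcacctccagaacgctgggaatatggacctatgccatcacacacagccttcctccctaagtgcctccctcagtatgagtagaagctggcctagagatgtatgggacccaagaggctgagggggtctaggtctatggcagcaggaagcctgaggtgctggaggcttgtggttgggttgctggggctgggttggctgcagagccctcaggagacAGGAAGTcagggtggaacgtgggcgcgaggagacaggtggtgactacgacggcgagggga
Lck proximal: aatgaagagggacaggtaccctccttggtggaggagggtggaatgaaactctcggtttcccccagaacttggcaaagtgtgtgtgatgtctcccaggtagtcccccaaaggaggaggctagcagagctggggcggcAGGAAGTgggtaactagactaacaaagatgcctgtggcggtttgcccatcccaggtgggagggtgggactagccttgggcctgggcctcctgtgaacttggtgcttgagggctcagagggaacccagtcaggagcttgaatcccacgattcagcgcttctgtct
Cd247: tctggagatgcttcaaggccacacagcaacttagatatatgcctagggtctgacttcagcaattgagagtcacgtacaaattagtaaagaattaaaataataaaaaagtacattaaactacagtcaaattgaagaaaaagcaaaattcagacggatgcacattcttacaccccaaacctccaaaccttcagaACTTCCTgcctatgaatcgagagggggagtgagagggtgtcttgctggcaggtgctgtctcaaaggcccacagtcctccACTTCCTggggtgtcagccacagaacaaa
Counted in bases from the start site, the core begins at -10 in the distal Lck window, at -114 in the proximal Lck window, and at -58 and 21 in the Cd247 window. RefSeq windows were matched for 8 of the 10 genes, in 9 windows, and 5 of these hold the core on either strand (those of Cd3d, Cd3e and Cd247 and both of Lck), against 3072 of 32851 windows of all genes (9.35%). The motif was chosen after the promoters had been read, so this count is a description.

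ZFP36 proteins bind AU-rich elements in 3′ UTRs, with TATTTAT as a core in the DNA letters of the annotation. By GENCODE M21, Cd247 and Thy1 hold this core in their annotated 3′ UTRs, Cd247 at 2 places. The sites are shown with the core in capitals, 5′ to 3′.
Cd247 at base 1462 of the UTR: tttccacTATTTATaaagatt
Cd247 at base 1934 of the UTR: ccttttcTATTTATgcttgtg
Thy1 at base 240 of the UTR: tactctgTATTTATtccaggg
The other 8 genes hold no match to these letters. The core was found in the 3′ UTR of 4641 of 15417 tested genes with an annotated UTR (30.1%), against 2 of the 10 genes here.

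In dKO livers 4 of the 10 genes were higher than in control livers (Thy1, Klrd1, Lck and Cd247), none was lower, and 6 did not pass the test (limma on log2(value + 0.5), Benjamini-Hochberg adjusted over 20055 genes, threshold 0.05). Across all genes tested, 38.2% were called, 21.2% higher in dKO livers and 17.0% lower. Among the 4337 genes whose mean lay between those of the lowest and the highest of the 10, 28.0% were called higher and 36.5% in either direction. DESeq2 called the same 4 genes of the 10 (22.6% of all genes it tested were called higher), edgeR called 3 of the 4 it tested (Lck, Thy1 and Klrd1; 27.4% of all genes), and limma after quantile normalization called those 3 (18.1%). At an unadjusted p under 0.05 limma had 5 of the 10 higher, against 25.3% of all genes. The median log2 change of the 10 genes was 1.11, against 0.031 over all genes tested and 0.34 over the genes in that range of means. In 5 of the 10 (the 4 genes above and Cd3e) every dKO liver lay above every control liver, and 19.4% of all tested genes, or 25.5% of those in that range of means, showed this order. The levels were low: the libraries held 951 reads of the 10 genes together in the 4 dKO livers and 269 in the 4 control livers.

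**Figure D1:**
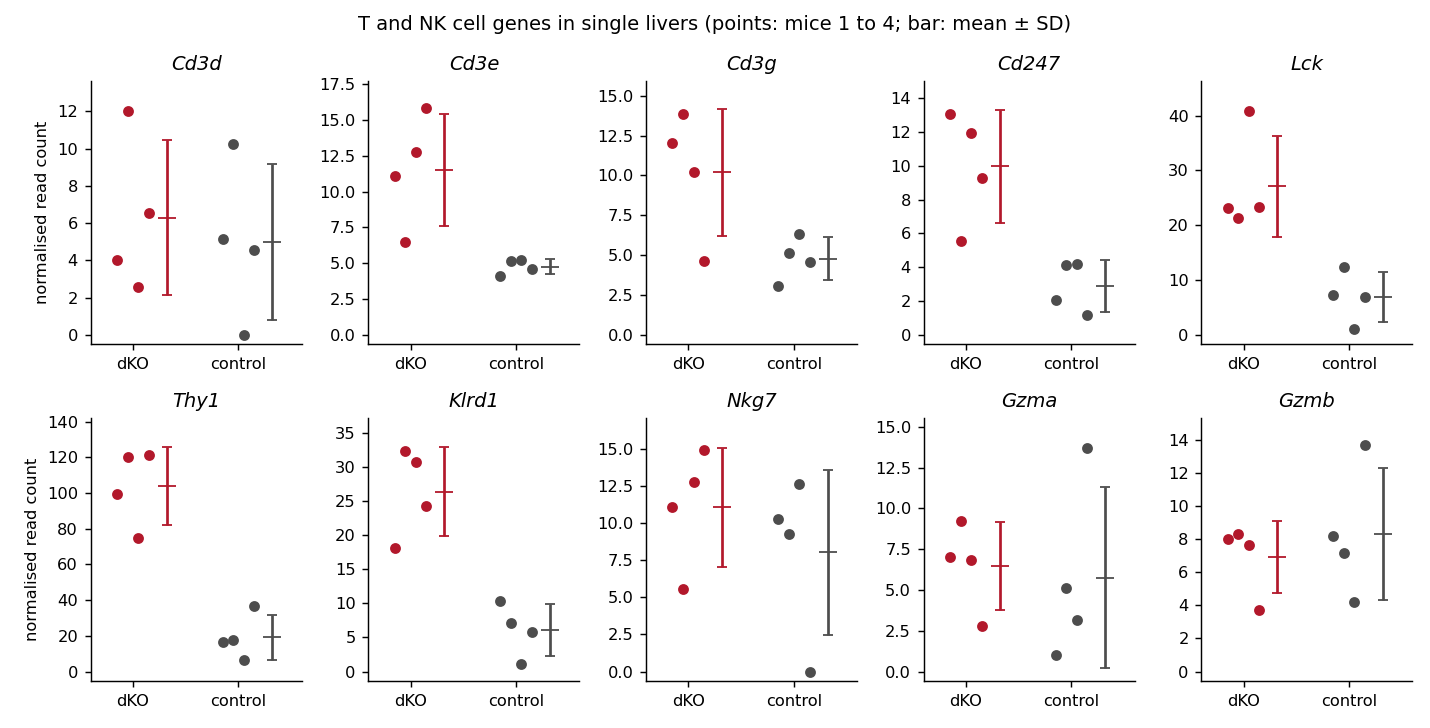
Normalised read count (y axis, linear, one scale per gene) of each of the 10 genes in single livers, dKO left and control right; points are mice 1 to 4 and bars are the mean ± SD. The dKO and control points do not overlap for Cd3e, Cd247, Lck, Thy1 and Klrd1, and they overlap for the other 5 genes.

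Of the CD3 chains, Cd247 passed the test. Cd247 (ENSMUSG00000005763, chr1:165788681-165877277, plus strand) encodes CD3-zeta, the chain that T cell and NK cell receptors share. It had 13.1, 5.55, 11.9 and 9.31 normalised read counts in dKO livers, against 2.05, 4.10, 4.21 and 1.14 in control livers. Every dKO liver lay above every control liver, although the lowest dKO value and the highest control value were close. The log2 change was 1.70 ± 0.52 (SE, 95% interval 0.56 to 2.83, n = 4 per group), with an adjusted p of 0.0215 in limma. These values rest on 43 reads in the dKO libraries and 11 in the control libraries. The call was lost without dKO 1 (adjusted p = 0.0598), without dKO 3 (0.0595), without control 1 (0.0503) and with quantile normalization (0.0704), over a range of 0.0172 to 0.0704 across the alternatives in limma and DESeq2. Exons of Cd247, 5329 bases long, overlap those of Pou2f1 on the other strand and Gm16565 on the same strand. The overlaps add up to 3213 bases over both genes. Without the strand setting of the counting such reads cannot be assigned with certainty. Pou2f1 averaged 149 ± 33.3 in dKO livers and 165 ± 24.9 in control livers (SD, n = 4 each), and its adjusted p was 0.494 in limma.

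Cd3e (chr9:44998740-45009627, minus strand), the chain to which most anti-CD3 antibodies bind, missed the threshold by a small margin. It had 11.1, 6.47, 12.8 and 15.8 normalised read counts in dKO livers, against 4.11, 5.13, 5.26 and 4.57 in control livers. The groups did not overlap, and the control livers lay close together. The log2 change was 1.13 ± 0.42 (SE, 95% interval 0.21 to 2.05) with an adjusted p of 0.0523 in limma. Over the alternatives this p ran from 0.0316 to 0.182 and was under 0.05 in 3 of 16.

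Cd3g and Cd3d, which encode the gamma and delta chains, lie beside Cd3e in the same cluster on chromosome 9 and did not pass the test. Cd3g (chr9:44969572-44980431, minus strand) had 12.1, 13.9, 10.2 and 4.66 normalised read counts in dKO livers, against 3.08, 5.13, 6.31 and 4.57 in control livers. In this gene 3 of the dKO livers lay above all controls and dKO 4 lay among them, with a log2 change of 0.96 ± 0.47 (95% interval -0.065 to 1.99, adjusted p = 0.131 in limma). Cd3d (chr9:44981786-44987339, plus strand) had 4.02, 12.0, 2.55 and 6.52 in dKO livers, against 5.13, 10.3, 0 and 4.57 in control livers. The groups overlapped throughout, and the log2 change was 0.75 ± 0.86 (95% interval -1.13 to 2.62, adjusted p = 0.536 in limma). The 0 of control 3 allows up to 3 counts in that library; such a floor corresponds to 2.55 to 3.02 normalised read counts in dKO livers and 3.08 to 3.43 in control livers. Without control 3 the fitted change of Cd3d was -0.19.

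Summed over the 4 CD3 chains, dKO livers lay between 36.3 and 40.2 normalised read counts and control livers between 14.4 and 24.6. The mean sum was 38.0 ± 1.64 in dKO livers and 17.4 ± 4.84 in control livers (SD, n = 4 each), a ratio of 2.18. Among dKO livers the SD of the sum was smaller than that of each chain, and Cd3d was highest in dKO 2, where Cd3e and Cd247 were lowest.

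Lck (chr4:129548344-129573641, minus strand), the kinase that phosphorylates the CD3 chains, was higher in dKO livers. It had 23.1, 21.3, 40.9 and 23.3 normalised read counts in dKO livers, against 7.19, 12.3, 1.05 and 6.86 in control livers. dKO 3 stood above the other dKO livers, control 3 held a single read, and the groups did not overlap. The log2 change was 2.20 ± 0.58 (SE, 95% interval 0.94 to 3.47) with an adjusted p of 0.00943 in limma, and the call held in 18 of 18 alternatives (adjusted p 0.0007 to 0.0342 over limma, edgeR and DESeq2). Without control 3 the log2 change was 1.57. The ratio of the means was 3.96, against 3.46 for Cd247 and 2.42 for Cd3e.

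Thy1 (chr9:44043384-44048579, plus strand) was the most abundant of the 10 genes and had the largest log2 change among them. It had 99.6, 120.2, 74.9 and 121 normalised read counts in dKO livers, against 16.4, 17.4, 6.31 and 36.6 in control livers. Every dKO liver lay above every control liver, with control 4 the highest of the controls. The log2 change was 2.62 ± 0.41 (SE, 95% interval 1.72 to 3.52), the adjusted p was 0.000303 in limma, and the call held in 18 of 18 alternatives. Thy1 took 48.1%, 51.2%, 35.5% and 53.5% of the reads of the 10 genes in dKO libraries 1 to 4, against 24.2%, 21.0%, 14.3% and 40% in control libraries 1 to 4. Without Thy1, the other 9 genes summed to 116 ± 14.1 normalised read counts in dKO livers and 52.4 ± 11.5 in control livers (SD, n = 4 each), a ratio of 2.21, against 5.41 for Thy1 alone.

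Markers of fibroblasts, which also carry THY1, moved in the same direction. Of 20 tested portal fibroblast and mesenchymal genes, 17 were higher in dKO livers and none was lower, with a median log2 change of 1.76. Of all tested genes 21.2% were called higher. The count of 17 was 13 with robust variances and 14 in DESeq2. The summed level of the 20 genes was 25713 to 34648 normalised read counts in dKO livers and 4439 to 14259 in control livers. Lum, which encodes the collagen-binding proteoglycan lumican, averaged 1099 ± 288 in dKO livers and 178 ± 57.6 in control livers (SD, n = 4 each). Pdgfrb, the receptor for platelet-derived growth factor on mesenchymal cells, averaged 693 ± 134 in dKO livers and 155 ± 46.3 in control livers. By the median over this list control 4 stood highest among the controls (1.31 above the control mean on the log2 scale) and control 3 lowest, as for Thy1. The same 2 controls were highest and lowest by the medians of the pan-leukocyte genes (0.457 and -0.470) and the monocyte and macrophage genes (0.592 and -0.436). Among dKO livers the orders differed: dKO 3 was lowest for Thy1, while its fibroblast median (1.75) lay above those of dKO 1 (1.66) and dKO 2 (1.65). No defining marker of the fibroblast list was at 0. Of 6 mesothelial genes, whose cells can also carry THY1, 2 passed the test (Lrrn4 and Krt19, both higher). Neither was called with quantile normalization, with robust variances, or without dKO 1, control 2 or control 3. The summed level of the 6 genes was 242 to 347 in dKO livers and 41.0 to 384 in control livers. The part of these cells in the Thy1 difference was not tested.

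**Figure D2:**
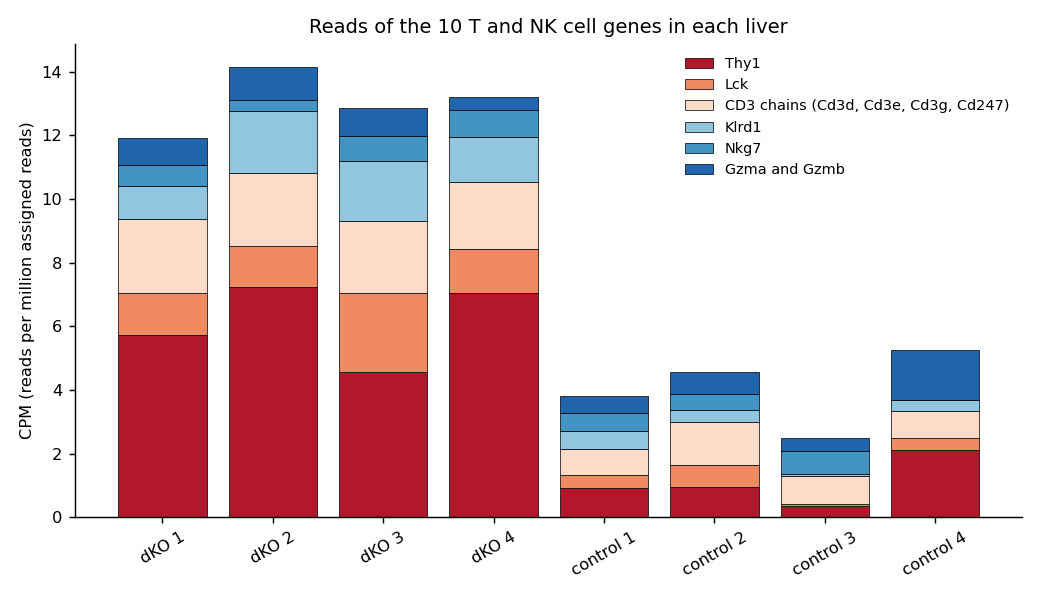
Counts (CPM of assigned reads) of the 10 genes in each liver (stacked bars, y axis from 0; dKO 1 to 4 left, control 1 to 4 right), split by groups of genes. The totals are 11.9 to 14.2 in dKO livers and 2.49 to 5.24 in control livers, and Thy1 takes the largest single part in dKO livers.

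Klrd1 (chr6:129591782-129598775, plus strand), which encodes CD94, was the NK receptor among the 10 and was higher in dKO livers. It had 18.1, 32.4, 30.7 and 24.2 normalised read counts in dKO livers, against 10.3, 7.18, 1.05 and 5.72 in control livers. The groups did not overlap, and control 3 was again the lowest. The log2 change was 2.30 ± 0.56 (SE, 95% interval 1.09 to 3.51), the adjusted p was 0.0057 in limma, and the call held in 18 of 18 alternatives (adjusted p 0.000179 to 0.0212 over limma, edgeR and DESeq2). Without control 3 the log2 change was 1.71. Klrc1, which encodes the NKG2A chain that pairs with CD94, had 5.03, 3.70, 7.66 and 14.9 normalised read counts in dKO livers, against 13.3, 9.23, 5.26 and 3.43 in control livers, with a log2 change of -0.016 and an adjusted p of 0.986 in limma.

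The genes of the cytotoxic granule did not pass the test. Nkg7 (chr7:43437073-43438249, plus strand) had 11.1, 5.55, 12.8 and 14.9 normalised read counts in dKO livers, against 10.3, 9.23, 12.6 and 0 in control livers. Its groups overlapped, and the fitted log2 change of 1.09 ± 0.90 (95% interval -0.85 to 3.04, adjusted p = 0.371 in limma) was -0.025 without control 4, the liver with no read. Gzma (chr13:113093825-113100981, minus strand) had 7.04, 9.25, 6.81 and 2.79 in dKO livers, against 1.03, 5.13, 3.16 and 13.7 in control livers. Gzmb (chr14:56258838-56262260, minus strand) had 8.04, 8.32, 7.66 and 3.72 in dKO livers, against 8.21, 7.18, 4.21 and 13.7 in control livers. For each granzyme dKO 4 was the lowest of its group and control 4 the highest of all 8 livers. The log2 change was 0.50 ± 0.67 for Gzma (95% interval -0.96 to 1.95, adjusted p = 0.600 in limma) and -0.20 ± 0.48 for Gzmb (95% interval -1.24 to 0.84, adjusted p = 0.785 in limma). The sum of both granzymes was 13.4 ± 4.79 in dKO livers and 14.1 ± 9.14 in control livers (SD, n = 4 each), from 58 and 52 reads. The interval for Gzma reaches past the fitted change of Cd247, whereas that for Gzmb ends below the fitted changes of Cd247, Lck, Thy1, Klrd1 and Cd3e.

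**Figure D3:**
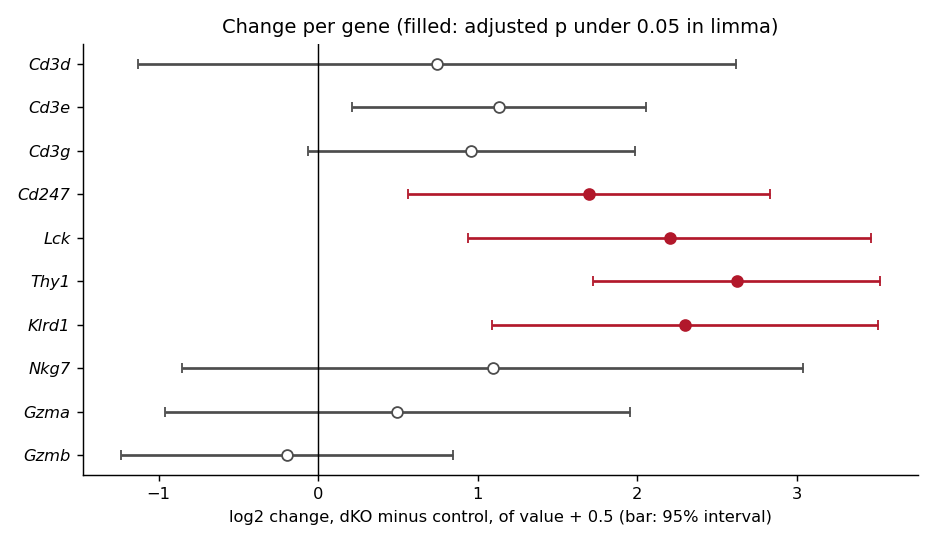
Log2 change (x axis, dKO minus control, of the value + 0.5) of each of the 10 genes, with its 95% interval; filled points have an adjusted p under 0.05 in limma. Thy1, Klrd1, Lck and Cd247 are filled and lie from 1.70 to 2.62, and Gzmb lies at -0.20.

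Per kilobase of exon, which allows levels of different genes to be compared, Thy1 stood first in dKO livers with 34.7 normalised read counts per kilobase, followed by Klrd1 with 20.6, Nkg7 with 12.1 and Lck with 9.26; the last pair lay within 1 SD of each other, and the others did not. In control livers Nkg7 stood first with 8.79 per kilobase, followed by Thy1 with 6.41, Gzmb with 5.80, Gzma with 5.72 and Klrd1 with 4.73. The CD3 chains lay between 1.87 and 3.46 per kilobase in dKO livers and between 0.540 and 2.75 in control livers. Cd247 was the lowest in both groups, and its level per kilobase is uncertain because its exons overlap other genes. Among the control genes from Nkg7 to Klrd1 each neighbour's mean lay within 1 SD of the next.

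All pan-leukocyte genes tested, 10 of 10, were higher in dKO livers, with a median log2 change of 1.51. The share of all tested genes called higher was 21.2%. Ptprc, which encodes the leukocyte surface phosphatase CD45, averaged 729.8 ± 172 normalised read counts in dKO livers and 215 ± 76.4 in control livers (SD, n = 4 each; log2 change 1.82, adjusted p = 0.000147 in limma). The ratio of T and NK genes to Ptprc was computed after their values had been seen and is a description. Per 100 normalised read counts of Ptprc, the 4 CD3 chains together had 7.74, 5.49, 4.82 and 3.90 in dKO livers, against 6.80, 9.06, 14.6 and 5.53 in control livers. Lck had 4.45, 3.08, 5.26 and 2.50 per 100 in dKO livers, against 3.40, 4.53, 0.971 and 2.55 in control livers. Thy1 had 19.1, 17.4, 9.65 and 13.0 per 100 in dKO livers, against 7.77, 6.42, 5.83 and 13.6 in control livers. On this ratio the groups overlapped for all of these measures.

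Other genes of T cell receptor signalling were taken from a list of 30. In this list 10 were higher in dKO livers, 1 was lower and 19 did not pass the test (median log2 change 0.67). That is 33.3% higher and 3.33% lower, against 21.2% and 17.0% of all tested genes. With quantile normalization and without dKO 4 the split was 6 higher to 1 lower, and without control 3 it was 7 to 0. Trac, the constant part of the receptor's alpha chain, averaged 7.46 ± 3.66 normalised read counts in dKO livers and 1.86 ± 1.00 in control livers (SD, n = 4 each), a log2 change of 1.73 with an adjusted p of 0.0278 in limma. It rested on 32 reads in dKO livers and 7 in control livers, and the call was lost with quantile normalization and without dKO 2, dKO 4, control 1 or control 3 (adjusted p 0.0641 to 0.0907 in limma). The beta constant genes did not pass the test: Trbc1 averaged 10.5 ± 3.43 in dKO livers and 8.77 ± 2.25 in control livers, and Trbc2 averaged 15.2 ± 7.60 in dKO livers and 11.4 ± 5.51 in control livers (adjusted p = 0.701 and 0.564 in limma). Themis, a regulator of signalling in thymocytes, averaged 169 ± 71.2 in dKO livers and 21.6 ± 19.9 in control livers, the largest log2 change of the list at 3.18 (adjusted p = 0.000206 in limma). Ets1, an ETS factor of lymphocytes and of endothelial and stromal cells, averaged 987 ± 140.5 in dKO livers and 481 ± 26.6 in control livers. Lcp2, which encodes the adaptor SLP-76 of T cells, myeloid cells and platelets, averaged 230.2 ± 32.8 in dKO livers and 101 ± 15.7 in control livers. Several called genes of this list are therefore at levels far above those of the CD3 chains. Tcf7, a transcription factor of naive T cells, was the gene that fell, with 63.5 ± 9.75 in dKO livers and 98.3 ± 21.9 in control livers (log2 change -0.61, adjusted p = 0.028 in limma). Its groups overlapped, and the call was lost with the replicate block (adjusted p = 0.0604 in limma) and without dKO 2, dKO 3, control 2 or control 3 (0.057 to 0.086).

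Of 23 NK cell genes tested, 5 were higher in dKO livers and none was lower (median log2 change 0.48), a share near the 21.2% of all tested genes. Cd244a, the receptor 2B4 of NK cells, T cells and myeloid cells, averaged 47.8 ± 14.8 normalised read counts in dKO livers and 8.52 ± 3.69 in control livers (SD, n = 4 each; log2 change 2.49, adjusted p = 0.000581 in limma). Sh2d1b1, which encodes the 2B4 adaptor EAT-2, averaged 16.0 ± 1.26 in dKO livers and 1.32 ± 0.491 in control livers, a log2 change of 3.21. Itga2, the alpha chain of the collagen receptor CD49b of NK cells and platelets, averaged 23.7 ± 7.23 in dKO livers and 2.62 ± 2.12 in control livers, a log2 change of 3.35 that was 2.61 without control 3. Itga1, the CD49a chain found on liver-resident lymphocytes and on stromal cells, averaged 482 ± 101 in dKO livers and 341 ± 13.6 in control livers. Il18rap, a chain of the interleukin-18 receptor, averaged 22.6 ± 5.89 in dKO livers and 9.45 ± 5.28 in control livers; its call was lost with quantile normalization and without dKO 1, control 2 or control 3 (adjusted p 0.0514 to 0.09 in limma). Among the receptors of this list that did not pass the test, Ncr1 (NKp46) averaged 3.90 ± 1.43 in dKO livers and 4.56 ± 2.32 in control livers. Klrb1c (NK1.1) averaged 13.3 ± 8.85 in dKO livers and 8.21 ± 3.97 in control livers, and Klrk1 (NKG2D) 28.6 ± 9.61 in dKO livers and 26.0 ± 4.11 in control livers. These receptors were chosen after their values had been seen and do not stand for the whole list.

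Of 17 genes of cytotoxic granules and effector molecules, 8 were higher in dKO livers and none was lower (median log2 change 0.85). This count was 4 with quantile normalization and without dKO 4, and 5 without dKO 2 or dKO 3. Serpinb9, the intracellular inhibitor of granzyme B that many cells make, averaged 328 ± 18.4 normalised read counts in dKO livers and 208 ± 21.1 in control livers (SD, n = 4 each; log2 change 0.66, adjusted p = 0.000302 in limma). Unc13d, which primes granules for release, averaged 54.2 ± 8.42 in dKO livers and 28.0 ± 5.39 in control livers. Srgn, the granule proteoglycan serglycin of many leukocytes, averaged 312 ± 63.6 in dKO livers and 170.0 ± 82.0 in control livers, and Stx11, a syntaxin of granule release, 41.5 ± 16.4 in dKO livers and 17.1 ± 5.75 in control livers. The call of Stx11 was lost without dKO 3 or dKO 4 (adjusted p = 0.0531 and 0.0565 in limma) and with quantile normalization (0.0856), as was that of Unc13d (0.0836). Prf1, the pore-forming perforin of the granule, averaged 3.08 ± 2.07 in dKO livers and 2.09 ± 2.20 in control livers and did not pass the test (adjusted p = 0.512 in limma). Over the lists of T cell receptor signalling, NK cells and effector molecules together, 23 of 70 genes were higher and 1 was lower, where 21.2% of all tested genes were called higher.

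Of 14 genes of T cell regulation, 3 were higher in dKO livers and none was lower, again near the share of all genes. With quantile normalization the split was 3 higher to 2 lower, and without dKO 4 it was 3 to 1. Havcr2, which encodes the checkpoint receptor TIM-3 of T cells and macrophages, averaged 64.8 ± 23.0 normalised read counts in dKO livers and 11.9 ± 2.51 in control livers (SD, n = 4 each; log2 change 2.34, adjusted p = 0.000104 in limma). Ikzf2, the factor Helios, averaged 17.6 ± 6.56 in dKO livers and 3.66 ± 2.39 in control livers. Pdcd1, the checkpoint receptor PD-1, rested on 14 reads in dKO livers and 1 in control livers (adjusted p = 0.0107 in limma and 0.0561 in DESeq2). Foxp3, the factor that defines regulatory T cells, averaged 5.82 ± 2.49 in dKO livers and 1.83 ± 2.26 in control livers and did not pass the test (adjusted p = 0.0564 in limma).

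Receptor adaptors and the ITAM-binding kinase Syk, which lymphocytes and myeloid cells share, were higher in dKO livers, 4 of 4 tested. Among all tested genes 21.2% were called higher. Tyrobp, the adaptor DAP12, averaged 603 ± 122 normalised read counts in dKO livers and 217 ± 46.4 in control livers (SD, n = 4 each; log2 change 1.48, adjusted p = 2.05e-05 in limma). Hcst, the adaptor DAP10 of NKG2D, averaged 19.2 ± 5.37 in dKO livers and 5.82 ± 2.74 in control livers (log2 change 1.70, adjusted p = 0.00739 in limma). Fcer1g, the gamma chain of Fc receptors, and Syk were higher as well, with log2 changes of 1.55 and 1.66.

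A list of lymphocyte chemokines, cytokines (Il7 and Il15), receptors and adhesion molecules was tested as well. In it 16 of 21 genes were higher in dKO livers and 1 was lower (median log2 change 1.29). The shares of all tested genes were 21.2% higher and 17.0% lower. Vcam1, the endothelial ligand of the integrin VLA-4, averaged 1218 ± 205 normalised read counts in dKO livers and 281 ± 11.9 in control livers (SD, n = 4 each; log2 change 2.10, adjusted p = 5.07e-08 in limma). Cxcl16, the ligand of CXCR6 on liver lymphocytes, averaged 375 ± 29.4 in dKO livers and 133 ± 7.04 in control livers. Icam1, the ligand of the integrin LFA-1, averaged 742 ± 119.6 in dKO livers and 197 ± 34.8 in control livers. Cxcr4, the receptor of CXCL12, averaged 119 ± 25.5 in dKO livers and 15.5 ± 5.79 in control livers (log2 change 2.94, adjusted p = 6.47e-06 in limma). S1pr1, the receptor for sphingosine 1-phosphate on lymphocytes and endothelium, was the gene that fell, with 728 ± 63.7 in dKO livers and 1066 ± 233 in control livers (log2 change -0.53, adjusted p = 0.0102 in limma).

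**Figure D4:**
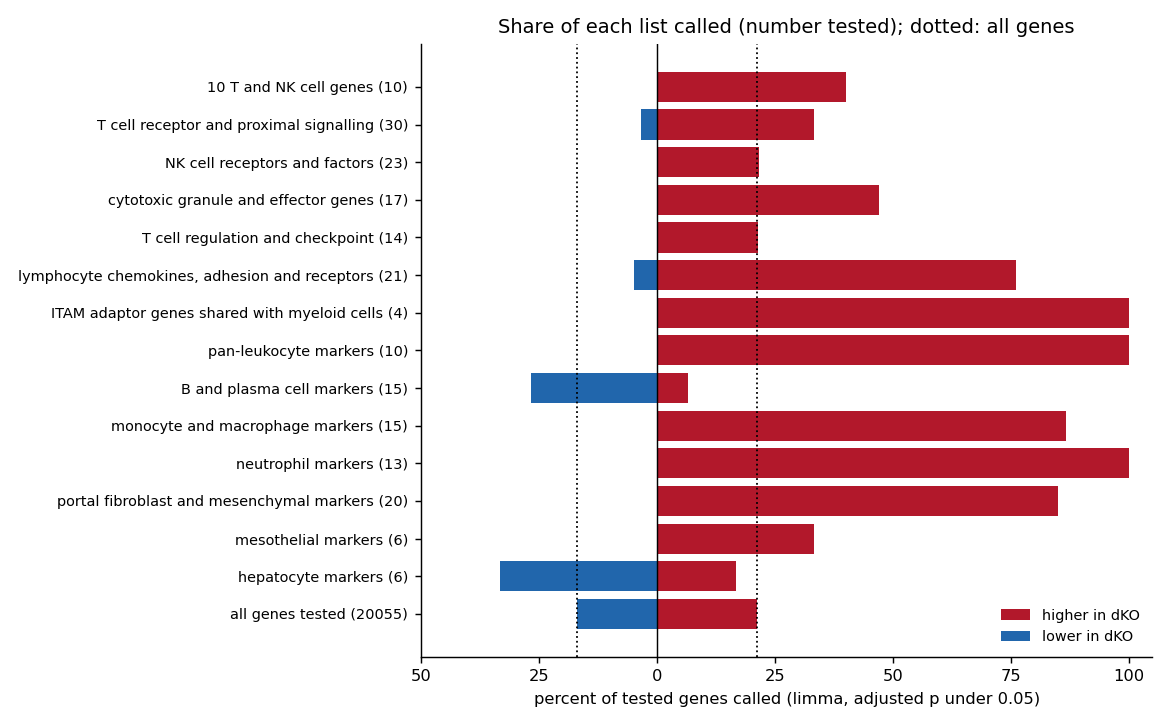
Percent of the tested genes of each list (number tested in brackets) that were called higher (right of 0) or lower (left of 0) in dKO livers (limma, adjusted p under 0.05); dotted lines give the shares of all tested genes. The 10 T and NK cell genes stand at 40% higher, neutrophil and pan-leukocyte genes at 100%, and all genes at 21.2%.

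Markers of other leukocytes moved to different degrees. All 13 neutrophil genes tested and 13 of 15 monocyte and macrophage genes were higher in dKO livers, against 21.2% of all tested genes. The median log2 changes of these lists were 2.88 and 1.72. Their summed levels were 836 to 1183 normalised read counts in dKO livers and 97.6 to 467 in control livers for neutrophils, and 17891 to 22461 in dKO livers and 5723 to 12411 in control livers for monocytes and macrophages. Ly6g, Ltf and Mpo of the neutrophil list were at 0 in all control livers, where each 0 allows up to 3 counts per library. The call of Ly6g was lost with quantile normalization, with the replicate block and without any 1 of the control livers (adjusted p 0.0586 to 0.102 in limma). Mmp9 was not called in edgeR (adjusted p = 0.144) or DESeq2 (0.266), nor Retnlg with robust variances (0.0819 in limma), and both lost their call in further settings. Leaving out 1 liver gave 10 to 12 called neutrophil genes. Many genes of the lists above, among them Lcp2, Havcr2, Tyrobp and Cd244a, are also expressed by myeloid cells. The part of myeloid cells in the difference of such genes was not tested. Of 15 B cell and plasma cell genes, 4 were lower, 1 was higher (Jchain) and 10 were not called, with a median log2 change of -0.11, where 17.0% of all tested genes were called lower. With the filter at a mean of 10 the split was 1 higher to 1 lower among 7 genes, and in edgeR 1 to 2 among 8. Cd79a, a signalling chain of the B cell receptor, averaged 3.96 ± 1.72 in dKO livers and 14.4 ± 4.46 in control livers (SD, n = 4 each), a log2 change of -1.77 with an adjusted p of 0.00989 in limma.

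**Figure D5:**
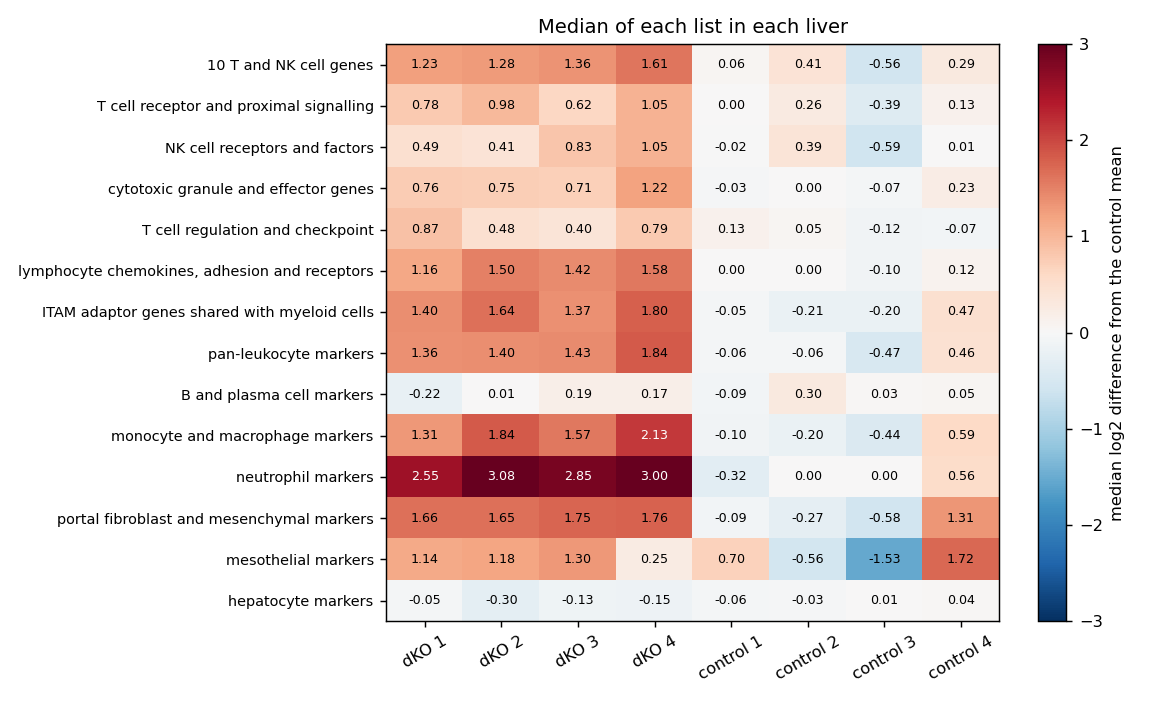
Median over the genes of each list (rows) of the log2 difference from the control mean in each liver (columns, dKO 1 to 4 left, control 1 to 4 right; colour and printed number give the value). The 10 T and NK cell genes lie between 1.23 and 1.61 in dKO livers and between -0.56 and 0.41 in control livers, and control 4 stands at 1.31 for the fibroblast list.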

How the data were processed

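Liver RNA of 8 mice, 4 per group, was sequenced; groups follow the genotype in the labels, which give no batch. The submitters' processing notes list HISAT2 2.0.5, the counter featureCounts 1.5.0-p3, fastp, DESeq2 and the build mm10. Neither annotation nor strand setting was stated. Values of the deposited table, although its name says FPKM, form a normalised signal: in each library 100% of them are (within 0.001) whole multiples of 1 step, as when gene read counts are divided by a size factor. For dKO 1 that step is close to 1 (1.0056), but its values, such as 99.555 for 99 reads of Thy1, are not whole numbers. Total reads recovered from the steps were 15253827 to 19299556 per library; floors of 3 counts cover counting error only.

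Symbols were found for 21796 of 22052 genes. With a minimum mean of 0.5, 20055 genes were tested 2-sided on log2(value + 0.5) with limma 3.58.1 in R 4.3.3, using trended eBayes variances, with Benjamini-Hochberg adjustment over all of them, as the design fixed; fold changes are on this scale, and those of low genes depend on the pseudocount and can lie above or below the ratio of the means. Alternatives used edgeR 4.0.16 and DESeq2 1.42.0 on the recovered reads, other pseudocounts, filters and scalings, and leaving out each liver. edgeR's own filter left 4 of the 10 genes. The steps were tested on simulated data. Named genes were the 10 members, and of each list every called gene up to 5, otherwise the 4 with the smallest adjusted p, or with none called the 2 highest; other named genes (Ptprc, Trac, Trbc1, Trbc2, Tcf7, Klrc1, Ncr1, Klrb1c, Klrk1, Prf1, Foxp3, S1pr1, Alb, Pou2f1 and genes at 0) were chosen for their role after their values had been seen. Some genes that the rule picks are not reported here. The members and lists were chosen with earlier results of these data known. Coordinates are from GENCODE M21 on GRCm38, the assembly of mm10, and promoters from RefSeq.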

Additional observations from a re-analysis of the deposited data

Results flagged for a closer look

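Of the 120 groups of 4 livers (60 named genes), 12 had 1 liver far from the other 3 (Dixon's test). Groups with the same value in every liver, such as Ltf and Mpo at 0 in control livers, could not be flagged. A group with reads in 1 liver only is always flagged, as for Pdcd1 and Ngp in control livers. The rate of about 1 in 20 for continuous values is therefore no measure for this count. Among the 10 T and NK cell genes, Lck stood at 40.9 normalised read counts in dKO 3, against 21.3 to 23.3 in the other dKO livers, and Gzmb at 3.72 in dKO 4, against 7.66 to 8.32. Of the targeted genes, Zfp36l1 stood at 267 in dKO 4 (others 209 to 214) and Zfp36l2 at 997 in control 3 (other controls 1722 to 1819.6). Among related genes, Themis stood at 51.3 in control 2 (others 9.15 to 14.4), Sh2d1b1 at 2.05 in control 2 (others 1.03 to 1.14) and Pdcd1 at 1.03 in control 1, a single read, with 0 in the other controls. Among leukocyte genes, Fcer1g stood at 258 in control 4 (others 133 to 154), Laptm5 at 1593 in dKO 4 (others 1194 to 1248), Rac2 at 383 in dKO 4 (others 312 to 320) and Ngp at 1.05 in control 3, with 0 in the other controls. Serpina1a, a hepatocyte gene, stood at 35859 in control 3 (others 30385 to 31037).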

How the results depend on the processing

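Lck, Thy1 and Klrd1 were higher in dKO livers and past the threshold in 18 of 18 alternatives, and Cd247 in 12 of 16; the number of the 10 genes called ran from 3 to 5. Cd3e was called with a pseudocount of 1 (adjusted p = 0.0451), with CPM scaling (0.0412) and without dKO 2 (0.0316), all in limma. Signs changed for genes that were not called: leaving out 1 liver gave -0.19 (without control 3) to 1.28 for Cd3d, -0.034 (without control 1) to 1.04 for Gzma, -0.025 (without control 4) to 1.55 for Nkg7 and -0.46 to 0.069 for Gzmb (above 0 without control 4, and 0.056 without dKO 4), with fewer samples each time. Of the 70 related genes, 15 were called with quantile normalization, against 24 before; quantile normalization moved the median of all genes by -0.11 on the log2 scale, and all genes then split 3638 higher to 4312 lower, against 4244 to 3410. With CPM scaling the split was 4732 to 2714. Leaving out 1 liver gave 6634 to 7601 called genes, 3 to 5 members, 16 to 26 related genes, -2.68 to -2.50 for Zfp36l1 and -1.17 to -0.88 for Zfp36l2. Deviations of same-numbered livers had correlations of 0.0324, -0.0693, 0.0375 and 0.0769, and 3 of 4 dKO livers correlated best with their own number. Such small correlations cannot decide whether the numbers stand for a shared litter or handling, and the main fit used no pairing. With the mouse number as a replicate block 7133 genes, 4 of the 10 and 20 of the 70 were called. Depth limits all of the 10 genes but Thy1: each rests on 11 to 31 reads in the 4 control livers.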

Other observations

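Over the 8 livers, after subtraction of each group's mean, the protein-coding genes whose log2 values ran most alike to Thy1 were Tnnt2 (Pearson r 0.976), Hyls1 (0.974), Aspm (0.973), Slc16a3 (0.973) and Fbln2 (0.965), out of 12568 genes compared. For the summed CD3 chains they were Haus2 (0.967), Rnf13 (0.960), Cab39l (0.959), Nrm (0.955) and H1fx (0.952). The points share libraries and depth, and no test goes with these values. Of the genes alike to Thy1, Tnnt2 (log2 change -0.48), Hyls1 (0.029) and Slc16a3 (2.20) were not called (adjusted p 0.0515 to 0.940 in limma). Aspm was called higher in dKO livers (1.59, adjusted p = 0.00446 in limma). None of these is in the fibroblast list. Fbln2, which encodes the matrix protein fibulin-2 of portal fibroblasts, was also in the fibroblast list. It was called higher in dKO livers (adjusted p = 0.0277 in limma). That call was lost in edgeR (0.0606), in DESeq2 (0.139), with robust variances in limma (0.122) and in several fits without 1 liver.

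Some T and NK genes were at the edge of detection. Klrg1, Gzmk and Gzmc had no read in any control liver, and Klra8 had none in any dKO liver; each 0 allows up to 3 counts per library.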
